A study of Mus musculus with 4 samples.

Results

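The genes described here are the 9 that encode the receptor chains for interleukin-15, interleukin-7, interleukin-12 and interleukin-18, together with the Il15 ligand itself: Il7r, Il2rb, Il2rg, Il15, Il15ra, Il12rb1, Il12rb2, Il18r1 and Il18rap. They were chosen by symbol, 9 of 32285 genes in the table of the CD45+ sort and 9 of 31053 in the table of the T cell sort, and each symbol matched 1 gene in both. Cells came from melanomas of wild-type C57BL/6 mice, grown under the skin from B16ZsG, a single clone of B16-F10 that makes the cytoplasmic green fluorescent protein ZsGreen (ZsG) from a lentiviral, doxycycline-inducible construct. The mice drank doxycycline and the tumors were taken on day 8. Tumor-infiltrating leukocytes were then sorted into ZsG-negative (ZsG-) and ZsG-positive (ZsG+) cells, the latter having taken up material from the tumor, once from all CD45+ cells and once from CD45+TCRb+ T cells, and read by droplet single-cell RNA sequencing.

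All 4 libraries share the host strain, the tumor clone and the doxycycline, and no tumor without ZsG was sequenced. Each sort contributed 1 ZsG- and 1 ZsG+ library, so that no difference has a replicate check, no p-value is printed, and the sources used here do not tell how many mice stand behind a library. The kept cells numbered 4698 ZsG- and 4124 ZsG+ in the CD45+ sort, and 948 ZsG- and 1879 ZsG+ in the T cell sort, of which 650 and 721 lay above the study's limit on CD3 transcripts and in T cell clusters. Median depth ran from 5769.5 to 9931 UMIs (unique molecular identifiers, counts of single mRNA molecules) per kept cell, and libraries of a sort shared between 1 and 6 cell barcodes. The CD45+ gate for ZsG+ cells took only bright cells, so that dimly labelled lymphocytes counted as ZsG- there, as the study describes. The names of the T cell sort disagree: the deposited table places ZsG+ first and ZsG- second, whereas the library names place them the other way round. The order of the table was followed, and under the other order every ZsG+ over ZsG- ratio of the T cell sort would change its sign. In the order followed, Treg-like cells numbered 29 ZsG- and 97 ZsG+, exhausted CD8-like cells 38 and 88, and naive-like cells 85 and 38. The paper reports Tregs and exhausted CD8 cells as enriched among ZsG+ T cells and naive-like cells as reduced, which are the same directions. The reverse order would give the opposite ones.

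Levels are given as CPM, the UMIs of a gene per 1000000 UMIs of the summed cells, with exact Poisson intervals of 95%, and ratios as log2 with exact conditional intervals of 95%. These intervals cover counting error only, not the spread between mice or libraries. A ratio was called higher or lower at 2-fold or more with at least 20 UMIs over both sums. The share of all genes called by the same rule is given with the counts of members and pathway genes in each comparison, but not with the counts under changed settings. Other ratios, such as those inside single T cell classes or of Gzmc-high cells, are given without it. Levels are compared for 1 gene between cells, not between genes, and not between the sorts, which were counted with different software versions.

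These receptors divide the work of keeping lymphocytes alive and arming them. Interleukin-15 is held on the surface of myeloid cells by its own receptor chain, the product of Il15ra, and is presented to neighbouring lymphocytes that carry the beta chain Il2rb and the common gamma chain Il2rg, a pair on which natural killer (NK) cells depend for survival. Interleukin-7 uses the same gamma chain with the alpha chain Il7r, which marks naive and memory T cells and many innate lymphoid cells (ILCs) and also serves the receptor for thymic stromal lymphopoietin together with Crlf2. Interleukin-12, through Il12rb1 and Il12rb2, and interleukin-18, through the binding chain Il18r1 and the accessory chain Il18rap, act together to induce interferon-gamma in NK cells, type 1 ILCs (ILC1) and Th1 cells.

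The 9 genes lie on 5 autosomes and the X chromosome of GRCm38, the mm10 build that the labels name, with gene boundaries from GENCODE vM21. Il18r1 (chr1:40465552-40500854, plus strand) and Il18rap (chr1:40515362-40551705, plus strand) are neighbours separated by 14507 bases. Il7r lies at chr15:9505788-9530176 and Il2rb at chr15:78479256-78495271, both on the minus strand. The others are Il2rg at chrX:101264378-101268255 (minus), Il15 at chr8:82331632-82403222 (minus), Il15ra at chr2:11705290-11734317 (plus), Il12rb1 at chr8:70808449-70821424 (plus) and Il12rb2 at chr6:67291318-67376188 (minus). Il12rb2 overlaps Serbp1 on the opposite strand, and Il2rg overlaps Gm20489 on the same strand, a gene model that is listed in the T cell table only. How reads in those stretches were assigned was not checked.

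RefSeq promoter sequences of GRCm38.p6, from 250 bases before to 50 after a start site, matched 6 of the 9 genes with 9 windows, and those of Il7r, Il18r1, Il18rap and Il15ra are shown because Il7r, the interleukin-18 receptor pair and the presenting chain of interleukin-15 carry much of what follows. Capitals mark matches on either strand to a T-box motif (GGTGTGA), an ETS motif (CCGGAAG), a RUNX motif (TGTGGTT), a STAT motif (TTCNNNGAA) or an IRF motif (GAAANNGAA). Of 32851 mouse promoters of this length, 3.98% held the T-box motif, 8.86% the ETS, 5.27% the RUNX, 8.3% the STAT and 8.56% the IRF motif. A match is a description of letters and not evidence of a bound site. The Il7r window (chr15:9529827-9530126, minus strand) held 1 RUNX and 1 STAT match, 1 of the 3 Il18r1 windows (chr1:40465371-40465670, plus) and the Il18rap window (chr1:40515112-40515411, plus) held 1 RUNX match each, and both Il15ra windows held 1 IRF match, of which the one at chr2:11705462-11705761 (plus) is shown.
Il7r: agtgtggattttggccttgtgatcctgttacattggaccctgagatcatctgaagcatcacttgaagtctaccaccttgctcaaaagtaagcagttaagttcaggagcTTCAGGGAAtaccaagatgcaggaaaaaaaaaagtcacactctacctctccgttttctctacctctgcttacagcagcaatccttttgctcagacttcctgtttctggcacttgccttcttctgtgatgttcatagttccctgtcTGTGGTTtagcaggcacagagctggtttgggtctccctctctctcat
Il18r1: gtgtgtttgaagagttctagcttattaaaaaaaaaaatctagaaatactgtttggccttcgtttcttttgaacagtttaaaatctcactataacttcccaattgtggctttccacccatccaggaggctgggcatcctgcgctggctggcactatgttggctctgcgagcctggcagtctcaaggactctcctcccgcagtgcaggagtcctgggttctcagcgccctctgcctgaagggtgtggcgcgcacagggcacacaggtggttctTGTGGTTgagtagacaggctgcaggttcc
Il18rap: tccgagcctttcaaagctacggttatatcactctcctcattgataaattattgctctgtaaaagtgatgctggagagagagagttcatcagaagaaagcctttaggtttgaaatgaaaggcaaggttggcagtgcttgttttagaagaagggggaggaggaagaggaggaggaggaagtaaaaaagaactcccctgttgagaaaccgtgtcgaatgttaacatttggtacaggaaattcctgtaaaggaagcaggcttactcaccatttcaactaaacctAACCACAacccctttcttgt
Il15ra: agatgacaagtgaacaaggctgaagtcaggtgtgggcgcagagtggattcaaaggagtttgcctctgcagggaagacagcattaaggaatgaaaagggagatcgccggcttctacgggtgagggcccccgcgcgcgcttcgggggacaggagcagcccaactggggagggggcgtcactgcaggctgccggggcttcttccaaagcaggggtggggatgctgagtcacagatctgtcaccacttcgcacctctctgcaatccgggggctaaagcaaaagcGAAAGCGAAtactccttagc
None of the 9 windows held the T-box letters. The windows of Il2rg and the other Il15ra start held 1 ETS match each, and those of Il12rb2 and another Il18r1 start held STAT matches.

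Cells of the CD45+ sort were clustered without the 9 genes and named from marker genes. The NK cell/ILC-like class held 2516 ZsG- and 113 ZsG+ cells and the T cell-like class 1537 and 216. The monocyte/macrophage-like class was almost the reverse, with 255 ZsG- and 3032 ZsG+ cells. Smaller classes were DC1-like, DC2-like, mature DC-like (dendritic cells with Ccr7 and Fscn1), plasmacytoid (pDC)-like and B cell-like cells.

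Il2rb, the chain through which interleukin-15 and interleukin-2 signal, was high in every NK/ILC subset and low in every myeloid cluster. The conventional NK-like subset reached 1226 CPM [1182, 1271], and the other NK/ILC subsets lay between 707 CPM in the Gzmc-high subset and 1141 CPM in a subset led by Ifit1. The ILC1-like subset, at 981.4 CPM [896.3, 1072], sat within that range. T cell-like clusters followed at 517.7 CPM in the cluster led by S1pr1, 383.8 CPM in the cluster led by Ifng and Pdcd1 and 342.9 CPM in the cluster led by Icos. In the monocyte/macrophage-like class Il2rb was found in 8.49% of cells against 97.6% of NK cell/ILC-like cells, at median depths of 9424 and 4547 UMIs, and in 2.50% against 85.2% when each cell was thinned to 2000 UMIs.

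The low Il2rb level of myeloid cells itself depended on the library. In the ZsG- library, where NK cells were abundant, it was 57.4 CPM in pDC-like, 70.6 CPM in DC2-like and 139 CPM in mature DC-like cells. The B cell-like cells of that library, a lymphoid class of 39 cells, had 138 CPM of Il2rb beside 1161 CPM of summed NK genes. In the ZsG+ library the pDC-like and mature DC-like cells had no Il2rb UMI and DC2-like cells had 8.35 CPM. Summed NK genes were 794.3 CPM in ZsG- and 180.1 CPM in ZsG+ mature DC-like cells, and 475.2 and 247.8 CPM in DC2-like cells. In pDC-like cells they hardly differed, at 324.1 CPM in ZsG- and 292.8 CPM in ZsG+ cells. The part of free NK cell RNA in these low values was not tested.

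Il2rg, the gamma chain that interleukins 2, 7, 15 and others share, was the only member present at 40 CPM or more in every class and cluster. It ranged from 43.1 CPM in DC1-like cells to 343.1 CPM in an NK/ILC subset led by Xcl1. The hypoxic macrophage-like cluster had 92.1 CPM and the other monocyte/macrophage-like clusters between 120.2 and 197.8 CPM, whereas NK/ILC subsets such as the conventional NK-like (297.6 CPM) and ILC1-like (323.1 CPM) cells lay above them. Myeloid cells therefore carried the gamma chain at a moderate level while holding little of the beta chain.

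**Figure D1:**
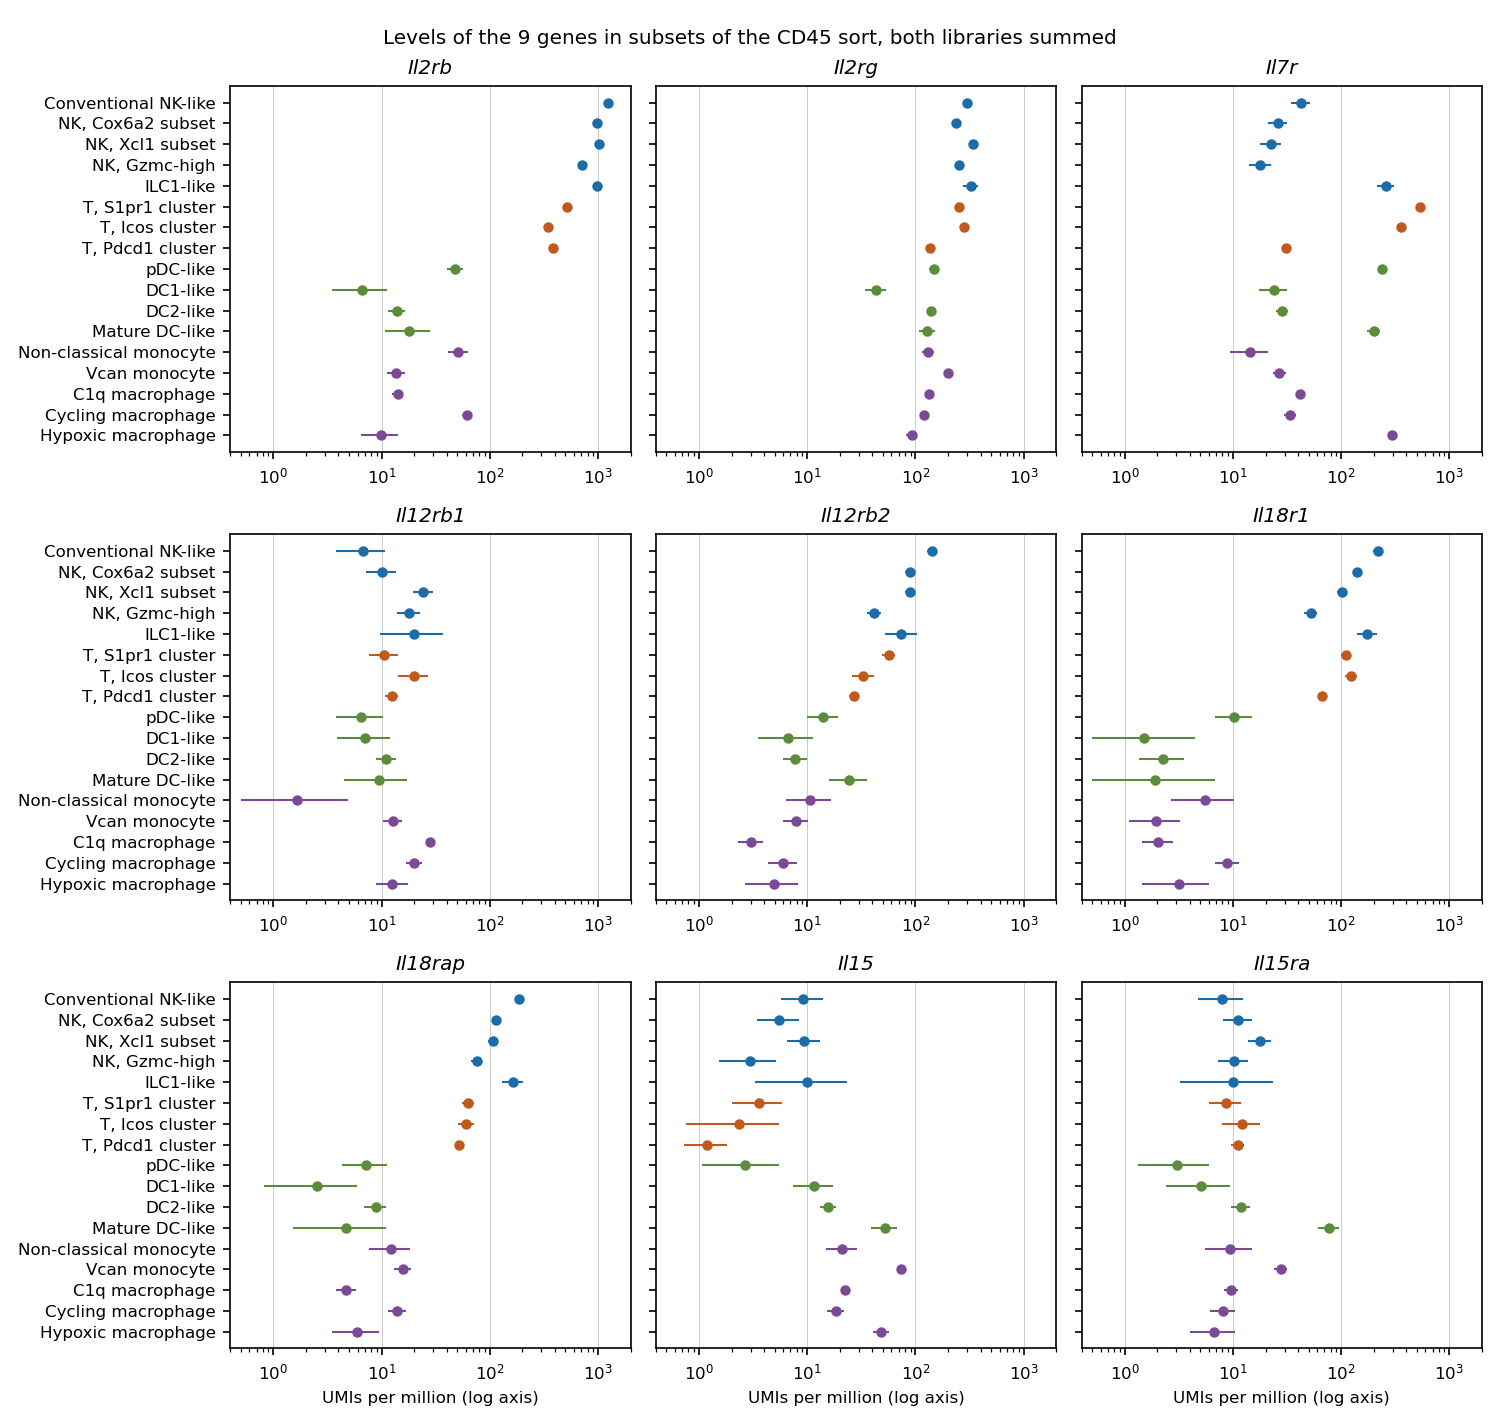
Level of each of the 9 genes (CPM, log axis) in 17 classes and subsets of the CD45+ sort, both libraries summed. Points are the level and bars its 95% Poisson interval, and Il2rb is high across the NK/ILC subsets (707 to 1226 CPM) while Il15 peaks in the Vcan cluster and mature DC-like cells.

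Il7r, the interleukin-7 receptor alpha chain, had the most scattered pattern, with high cells in the lymphoid and in the myeloid branch. The T cell-like cluster led by S1pr1 had 534.9 CPM and the cluster led by Icos 360.8 CPM, but the cluster led by Ifng and Pdcd1, whose cells were the deepest, had 31.0 CPM. Among NK/ILC cells the gene was low in the conventional NK-like subset (42.3 CPM) and reached 256.9 CPM [214.3, 305.4] in the ILC1-like subset. It was found in 61.0% of ILC1-like cells and 5.54% of conventional NK-like cells, and in 35.4% and 4.74% after thinning. In the non-classical monocyte-like cluster, where the gene was lowest among the myeloid clusters, the shares were 4.91% and 1.34%, at a median of 7826 UMIs against 5546 UMIs in the ILC1-like subset.

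In the myeloid branch 3 groups carried Il7r at or somewhat under the level of ILC1-like cells. The hypoxic macrophage-like cluster, named from Nos2, Arg1, Mmp12 and Vegfa, had 293.0 CPM [273.5, 313.5] from 837 UMIs in 373 cells, 370 of them ZsG+, and 56.0% of its cells held a UMI (31.6% after thinning). That was 2.81 log2 units [2.67, 2.95] above the macrophage-like cluster led by C1q genes, at 41.8 CPM. The pDC-like cells had 237.5 CPM [219.2, 256.9], 261.7 CPM in the ZsG- and 113.9 CPM in the ZsG+ library (−1.20). The mature DC-like cells had 199.2 CPM, under the interval of the ILC1-like cells, with 218.6 CPM in the ZsG- and 196.4 CPM in the ZsG+ library. DC2-like cells had 28.5 CPM and DC1-like cells 23.8 CPM. Crlf2, which pairs with Il7r for thymic stromal lymphopoietin, stood at 156.8 CPM in the hypoxic cluster and 170.8 CPM in the C1q cluster, and so did not share the step in Il7r.

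The interleukin-12 receptor chains had different distributions. Il12rb2, the chain that signals to Stat4, was highest in conventional NK-like cells at 142.7 CPM [128, 158.7], lower in the Cox6a2 (88.6 CPM) and Xcl1 (89.1 CPM) subsets and 41.3 CPM in the Gzmc-high subset. T cell-like clusters had 27 to 56.6 CPM and the C1q macrophage-like cluster 3.02 CPM. Il12rb1, which the interleukin-23 receptor also uses, was 6.70 CPM in conventional NK-like cells, 24.4 CPM in the Xcl1 subset and 20.1 CPM, from only 10 UMIs, in the ILC1-like subset. Its level in the C1q macrophage-like cluster, 27.9 CPM [25.6, 30.4], was as high as in any NK/ILC subset except the Ifit1 subset at 32.1 CPM. Non-classical monocyte-like cells had 1.66 CPM. In 27.8% of C1q cluster cells and 1.34% of non-classical cells an Il12rb1 UMI was found, at medians of 12102 and 7826 UMIs, and after thinning in 5.37% of the former and in 0 of the latter.

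Both interleukin-18 receptor chains followed Il2rb. Il18r1 and Il18rap were 216.8 and 187.9 CPM in conventional NK-like cells, 174.6 and 162.6 CPM in ILC1-like cells and 52.2 and 75.8 CPM in the Gzmc-high subset. In T cell-like clusters Il18r1 was 66.5 to 123.1 CPM and Il18rap 52.3 to 63 CPM. Myeloid cells had far less of the binding chain, with 2.03 CPM in the C1q cluster and 1.96 CPM in the Vcan cluster. The accessory chain was 15.8 CPM in the Vcan cluster and 12.2 CPM in the non-classical cluster, so that these myeloid cells held more Il18rap than C1q macrophage-like cells (4.74 CPM).

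Across 20 classes and subsets, Pearson's r of log2(CPM + 1) was 0.98 between Il2rb and Il18r1, 0.958 between the 2 interleukin-18 receptor chains and 0.927 between Il2rb and Il12rb2. It was 0.11 between the interleukin-12 receptor chains, 0.036 between Il7r and Il2rg and 0.416 between Il15 and Il15ra. These correlations describe levels in subsets that share libraries and differ in depth, and they are not a test.

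Within the ZsG- CD45+ library, NK cell/ILC-like cells were set against T cell-like cells to see which of these receptors distinguish the lymphocytes that meet the same tumor. NK cell/ILC-like cells were higher in 4 of the 9 genes and lower in 1, where 9.61% of all 11852 genes were higher and 11.1% lower. Il2rb was 966.7 CPM in NK cell/ILC-like and 407.6 CPM in T cell-like cells, a log2 ratio of 1.25 [1.21, 1.28]. Il12rb2, at 85.6 and 33.2 CPM, and Il18rap, at 116.1 and 55.1 CPM, were higher by 1.37 and 1.08. Il7r went the other way, with 34.4 CPM in NK cell/ILC-like and 159.6 CPM in T cell-like cells, a ratio of −2.21 [−2.35, −2.08].

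The T cell-like value of Il7r averaged over unlike clusters, at 530.4, 353.8 and 32.91 CPM in this library. When every cell was thinned to the same depth, which lessens the weight of the deep Ifng and Pdcd1 cluster, the ratio was −3.29. Il15, a ligand made mainly by myeloid cells, also passed the 2-fold limit (105 UMIs, 6.85 CPM in NK cell/ILC-like; 27 UMIs, 1.33 CPM in T cell-like cells), but its ratio of 2.37 was 0.29 after thinning. The remaining members, Il2rg (0.68), Il18r1 (0.57), Il12rb1 (0.44) and Il15ra (0.19), stayed under 2-fold, and the median of the 9 was 0.68 against 0.03 over all genes.

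Of 43 other genes of these pathways, 36 could be tested here. In NK cell/ILC-like cells 5 were higher and 8 lower, where 9.61% of all genes were higher and 11.1% lower. Bcl2, a survival gene downstream of both cytokines, was higher (285.5 against 102.8 CPM, 1.47), as was the kinase gene Jak1 (1.06), with Irak2, Casp1 and Bcl2l11. Ifng, a gene that interleukin-12 and interleukin-18 can induce, was lower (68.7 against 548.7 CPM, −3.00), and what drove it in either class was not tested. The other largest differences were Il1rl1, the interleukin-33 receptor (−4.86), Ebi3 (−3.80), Irak3 (−2.76), Il23a (−2.71) and Il2ra, the high-affinity interleukin-2 receptor chain (−1.85).

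ILC1-like cells were next set against conventional NK-like cells, 81 and 703 cells of the same library. Marker levels of the ILC1-like subset are given first, of which Cxcr6 and Klra8 also served to name the subsets. Over both libraries it had 680.3 CPM of Ncr1, 134.5 CPM of Cxcr6 and 194.7 CPM of Rora, with Eomes at 38.1 CPM and Klra8 at 42.1 CPM. Conventional NK-like cells had 464.9, 5.02, 46.0, 271.6 and 645.7 CPM of the same genes. Cd3e was 22.1 and 6.70 CPM in the 2 subsets, and Il5 and Il13, which mark type 2 ILCs, had no UMI in the ILC1-like cells. Rora, which was higher in the ILC1-like cells, stands on the same list for type 2 ILCs, and its members Gata3 and Areg were not examined here. No marker list for type 3 ILCs was used. The label also depended on the clustering. At lower resolution it fell on a subset led by Tmem176b and Krt83, as here. With 10 principal components it fell on 181 ZsG- cells led by Ifit1, Ifit3 and Rsad2.

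Il7r was the member that set ILC1-like cells apart. They held 128 UMIs (258.2 CPM) against 101 UMIs (42.3 CPM) in conventional NK-like cells, a log2 ratio of 2.61 [2.22, 3.00]. Il12rb1 was also called higher, on 10 and 16 UMIs (20.2 and 6.70 CPM, 1.59 [0.29, 2.82]), so that 2 of 9 members were higher and 0 lower, where 3.2% of 8068 genes were higher and 11.7% lower. Il12rb2 was 74.6 against 142.8 CPM, a ratio of −0.94 [−1.47, −0.44] that did not reach 2-fold. Il2rb (980.4 and 1226 CPM, −0.32), Il18r1 (−0.31), Il18rap (−0.20) and Il2rg (0.13) differed little beside a median of −0.20 over all genes. The receptor chains for interleukin-15 and interleukin-18 were thus within 2-fold of each other in both subsets.

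In the rest of the list, 28 genes could be tested between ILC1-like and conventional NK-like cells. Of these 1 was higher and 2 lower, where 3.2% of all genes were higher and 11.7% lower. Il27ra, an interleukin-27 receptor chain, was higher (48.4 against 19.7 CPM, 1.30), and Traf6 (−2.12, 2 and 42 UMIs) and Stat5b (−1.26) were lower. The Gzmc-high cells, an NK/ILC subset with Gzmc, Gzmd and Gzme and with 382.5 CPM of Mki67 over both libraries, had less of several of these receptors. In the same library the Gzmc-high subset was lower than the conventional NK-like subset in Il18r1 (−2.08), Il12rb2 (−1.80), Il18rap (−1.34) and Il7r (−1.23) and higher in Il12rb1 (1.43). Its Il7r level of 18.1 CPM gave a ratio of −3.84 to the 258.2 CPM of ILC1-like cells, against which Il18r1 (−1.78) and Il18rap (−1.14) were also lower and the other chains within 2-fold. Gzmc-high cells had a median of 15652 UMIs against 3269 UMIs in conventional NK-like cells, and the median ratio over 9527 genes was −0.22. The share of all genes past 2-fold was not computed for Gzmc-high cells, so it is not known whether these chains differed more often than other genes.

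**Figure D2:**
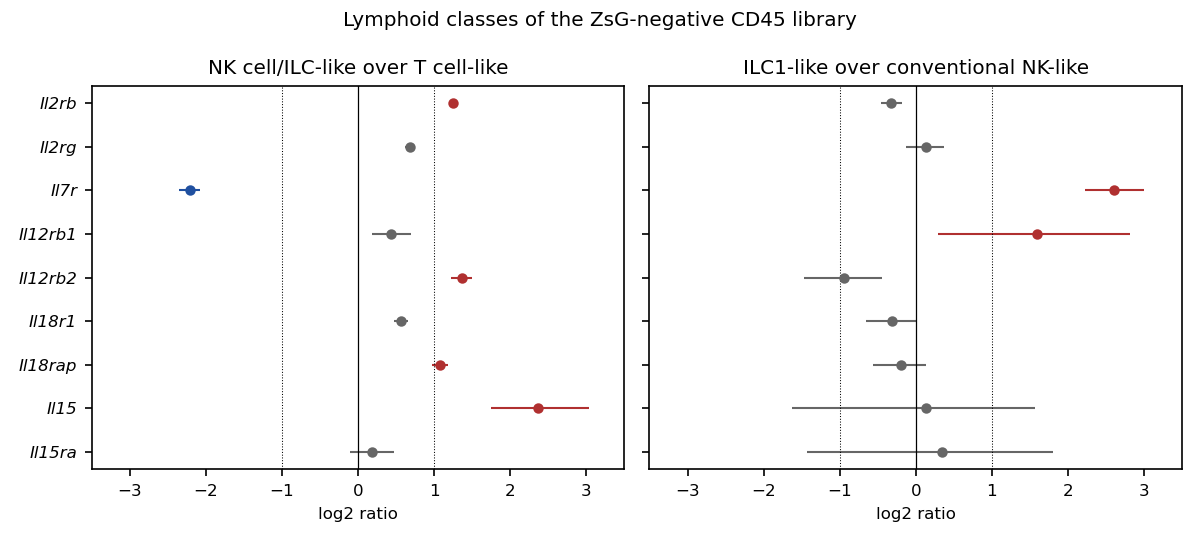
Log2 ratios of the 9 genes in the ZsG- CD45+ library, NK cell/ILC-like over T cell-like cells and ILC1-like over conventional NK-like cells, with 95% intervals and dotted lines at 2-fold. Il7r is lower in NK cell/ILC-like than in T cell-like cells (−2.21) and higher in ILC1-like than in conventional NK-like cells (2.61).

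The T cell sort resolved the lymphoid pattern of Il7r further. Th1-like cells (69 ZsG- and 57 ZsG+) were CD4 cells without a Foxp3 UMI. Of the marker list that named them, Cd4 and Cd40lg were among the cluster's leading genes and Tbx21 was not. Their Il7r level was 949.8 CPM [865.6, 1040]. Naive-like cells had 580.9 CPM, Ly49 T-like cells, which express NK receptors of the Klra family, 481.6 CPM, and an unnamed cluster led by interferon-response genes 471.9 CPM. Treg-like cells, with 365.1 CPM of Foxp3, followed at 328.6 CPM. Exhausted CD8-like cells (41.1 CPM), cycling cells (42.5 CPM) and an unnamed cluster with Ifng, Xcl1 and Il2 (31.7 CPM) formed the low end, and the naive-like level was 3.82 log2 units above the exhausted one.

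Effector memory CD8-like cells fell on both sides of that divide. Their cluster 1 had 288.7 CPM and their cluster 6 had 65.2 CPM, 2.15 log2 units apart [1.70, 2.62]. Both were named from the same markers and clustered without Il7r. Exhausted CD8-like cells were lower than cluster 1 by a ratio of −2.81.

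Of the other chains, Il2rb was highest in Ly49 T-like cells (630.9 CPM), then in Treg-like (406.4 CPM) and exhausted CD8-like cells (335.8 CPM), and lowest in naive-like cells (189.5 CPM) and the unnamed Ifng cluster (183.2 CPM). NK cell/ILC-like cells that fell under the CD3 limit of the same sort had 991.4 CPM. Il2rg ranged only from 127.1 CPM in cycling cells to 374.1 CPM in the interferon-response cluster, with 366.3 CPM in Treg-like cells. Ly49 T-like cells, which resemble NK cells in their Klra genes, were thus also nearest to them in Il2rb, and exceeded naive-like cells by 1.74 in Il2rb, 1.74 in Il18rap and 1.64 in Il12rb2.

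Treg-like and Th1-like cells, both CD4 cells, differed in both the interleukin-12 and the interleukin-18 receptor. Il12rb1 was 61.3 CPM [45.7, 80.3] in Treg-like cells against 13.8 CPM in all other T cells, a log2 ratio of 2.15 [1.66, 2.61]. Of its 52 UMIs there 48 came from ZsG+ cells (70.3 CPM), which were 97 of the 126 Treg-like cells, and 4 from ZsG- cells (24.1 CPM). All ZsG- T cells, Treg-like cells included, had 11.7 CPM, so that in the ZsG- library the difference rests on only 4 UMIs. Il12rb2 was 11.8 CPM in Treg-like cells and lower than in the others (−1.36). Il12rb1 was found in 15.3% of thinned Treg-like cells, and in 0.813% of thinned naive-like cells. Il18r1 was highest in Th1-like cells, at 270.5 CPM [226.5, 320.6], followed by effector memory CD8-like (122.9 CPM) and Ly49 T-like cells (115.1 CPM). Treg-like cells had 64.8 CPM, 2.06 log2 units under Th1-like cells. Il18rap did not follow its partner there: it was 44.7 CPM in Th1-like cells but 97.2 CPM in effector memory and 84.1 CPM in exhausted CD8-like cells.

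The first comparison by ZsG concerned the T cells of the T cell sort and asked whether T cells that held tumor material differed in these receptors. Il7r was the only member of 8 tested that passed 2-fold. It had 1733 UMIs (368.4 CPM) in ZsG- and 1021 UMIs (157.4 CPM) in ZsG+ T cells, a log2 ratio of −1.23 [−1.34, −1.11], where 1.84% of all 9946 genes were lower and 4.05% higher. Il15, at 8 and 3 UMIs, was too rare to test. Il12rb1, at 11.7 and 21.6 CPM (0.88 [0.42, 1.36]), lay under the limit, and Il2rb (342.7 and 310.1 CPM, −0.14), Il2rg (−0.22), Il12rb2 (−0.31), Il18r1 (−0.31), Il18rap (−0.11) and Il15ra (0.39) stayed nearer to 0.

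**Figure D3:**
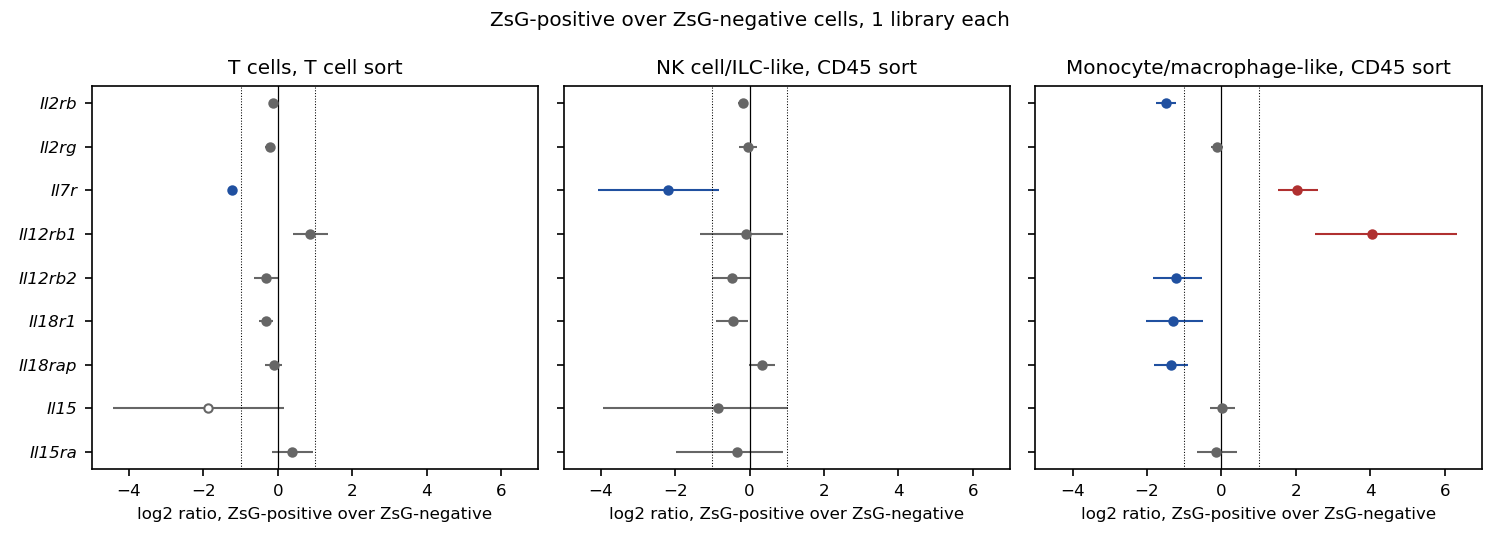
Log2 ratios of the 9 genes, ZsG+ over ZsG-, in T cells of the T cell sort and in NK cell/ILC-like and monocyte/macrophage-like cells of the CD45+ sort, with 95% intervals, dotted lines at 2-fold and open points under 20 UMIs. Il7r is −1.23 in T cells, −2.19 in NK cell/ILC-like cells and 2.04 in monocyte/macrophage-like cells.

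The makeup of the T cells also differed between the libraries. Among the classes with high Il7r, naive-like (85 ZsG- and 38 ZsG+ cells) and Ly49 T-like (136 and 96) cells were more numerous in the ZsG- library and Treg-like cells (29 and 97) in the ZsG+ library. Of the classes with low Il7r, exhausted CD8-like (38 and 88) and cycling cells (25 and 79) were more numerous in the ZsG+ library. Within classes the ratio was −0.90 [−1.20, −0.61] in Th1-like cells (1185 CPM in ZsG-, 633.8 CPM in ZsG+), −0.46 in Ly49 T-like, −0.48 in naive-like and −0.56 in effector memory CD8-like cells. It was 0.19 in Treg-like (295.5 and 336.7 CPM), 0.43 in exhausted CD8-like (33.3 and 44.7 CPM) and −0.06 in cycling cells. Among clusters only the unnamed Ifng cluster passed 2-fold, at 70.3 CPM in ZsG- and 16.7 CPM in ZsG+ cells (−2.07).

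Weighing each named class the same gave a mean ratio of −0.27, and thinning all cells to the same depth gave −0.75. With cells weighed equally by their own CPM, Il7r was at −0.92 and Il12rb1 at 1.04, so that the call passed from the former to the latter. Summed macrophage genes were 28.1 CPM in ZsG- and 119.2 CPM in ZsG+ T cells, and their part in these ratios was not tested. In the T cell-like class of the CD45+ sort, where the gate differed, Il7r was 159.6 CPM in ZsG- and 98.2 CPM in ZsG+ cells (−0.70). Summed macrophage genes were 108.1 CPM in ZsG- and 1054 CPM in ZsG+ cells of that class. At least 5 of these UMIs were held by 1.82% and 40.7% of the cells, and their part in the ratio was not tested.

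**Figure D4:**
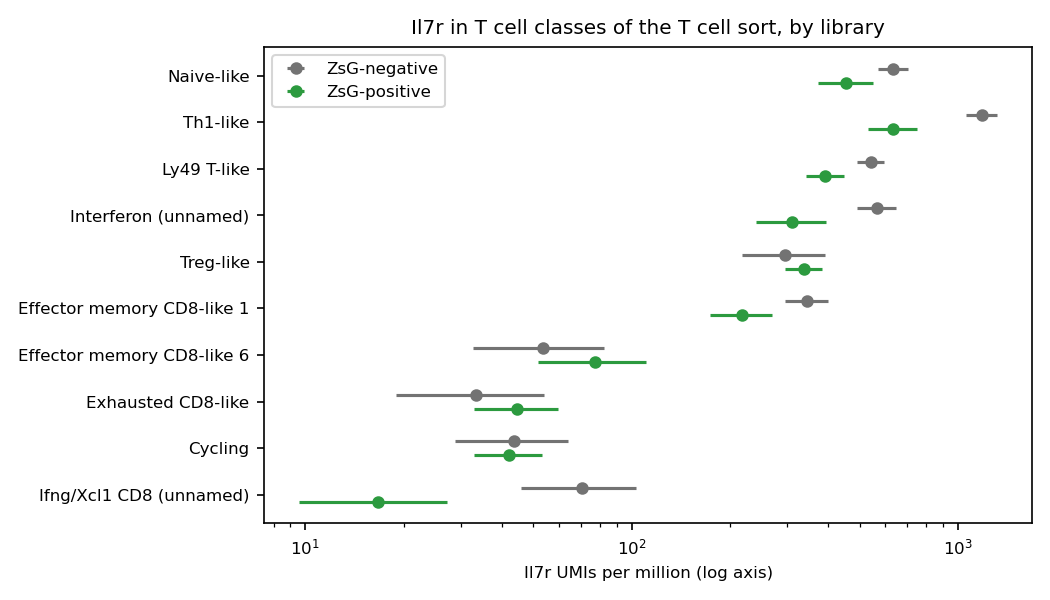
Il7r level (CPM) in 10 T cell classes and clusters of the T cell sort, ZsG- and ZsG+ libraries apart, with 95% Poisson intervals. Th1-like cells are highest in both libraries (1185 and 633.8 CPM) and exhausted CD8-like and cycling cells low in both.

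Other members passed 2-fold inside single T cell classes. Il18r1 was 354.8 CPM in ZsG- and 157.2 CPM in ZsG+ Th1-like cells (−1.17), and 120.6 and 51.2 CPM in Treg-like cells (−1.24). Il18rap was also lower in ZsG+ Treg-like cells (−1.63). Il12rb1 was higher in ZsG+ Treg-like cells (24.1 and 70.3 CPM, 1.54), on 4 and 48 UMIs, with an interval of 0.09 to 3.48. Il12rb1 in exhausted CD8-like cells (1.39 [−0.15, 3.39], 4 and 23 UMIs) and Il15ra in effector memory CD8-like cells (1.01 [−0.25, 2.37], 9 and 16 UMIs) passed 2-fold with intervals that include no difference. In Treg-like cells, then, Il12rb1 was higher in the ZsG+ library and both interleukin-18 receptor chains were lower, each on few UMIs. The share of all genes past 2-fold was not computed inside single classes, so it is not known whether these members passed more often than other genes.

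Of the 43 pathway genes 33 could be tested in T cells. Of these 3 were higher and 2 lower in ZsG+ cells, where 4.05% of all genes were higher and 1.84% lower. Higher in ZsG+ T cells were Ifng (653.7 and 2322 CPM, 1.83), Ebi3 (1.64), a subunit of interleukin-27 and interleukin-35, and Il1rl1 (1.52). Lower were Il2 (45.1 and 14.8 CPM, −1.61) and Bcl2 (210.9 and 94.5 CPM, −1.16), the survival gene that interleukin-7 induces. Il2ra, at 0.99, was just inside the limit.

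In NK cell/ILC-like cells of the CD45+ sort the ZsG+ library gave only 113 cells against 2516, and 90 of the 113 fell in a subset that also held macrophage transcripts. Summed macrophage genes were 51.0 CPM in ZsG- and 684.3 CPM in ZsG+ cells, and 0.398% and 22.1% of the cells held at least 5 of these UMIs. Il7r was again the 1 member of 9 called, with 528 UMIs (34.4 CPM) in ZsG- but 4 UMIs (7.54 CPM) in ZsG+ cells (−2.19 [−4.07, −0.83]), where 8.4% of 10653 genes were lower and 5.86% higher. The Il7r-bearing ILC1-like subset held 81 of its 82 cells in the ZsG- library. Those 81 cells held 128 of the 528 Il7r UMIs, so most of the ZsG- UMIs came from other NK/ILC subsets. Without the subset with macrophage transcripts 23 ZsG+ cells remained, with Il7r at −1.88 and Il15ra, on few UMIs, at −1.35.

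Il2rb was 966.7 CPM in ZsG- and 859.6 CPM in ZsG+ NK cell/ILC-like cells (−0.17), and Il2rg (−0.04), Il12rb2 (−0.46), Il18r1 (−0.45) and Il18rap (0.34) were also within 2-fold. Il15, Il15ra and Il12rb1 had 2, 5 and 8 UMIs in the ZsG+ cells. Of 31 pathway genes tested, Il18 (2.05 [−0.34, 3.79]) and its inhibitor Il18bp (1.39 [−0.96, 3.07]) were higher, each on 3 UMIs in ZsG+ cells. Both were far higher in monocyte/macrophage-like cells (53.3 and 135.3 CPM). Socs2, a gene induced by Stat5, was lower, on 136 UMIs in ZsG- and 1 in ZsG+ cells (−2.23 [−7.55, 0.27]). Each of these intervals includes no difference. By the same rule 5.86% of all genes were higher and 8.4% lower.

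In monocyte/macrophage-like cells 6 of 9 members passed 2-fold between the libraries, 2 higher and 4 lower in ZsG+ cells, where 17.9% of all 11767 genes were higher and 11.2% lower. Il12rb1 was 1.34 CPM, from 3 UMIs, in ZsG- and 22.3 CPM in ZsG+ cells (4.05 [2.50, 6.33]), and Il7r 13.9 and 57.1 CPM (2.04 [1.53, 2.60]). Il2rb (61.8 and 21.9 CPM, −1.50), Il18rap (21.5 and 8.33 CPM, −1.37), Il18r1 (8.07 and 3.26 CPM, −1.31) and Il12rb2 (10.8 and 4.66 CPM, −1.21) were lower. These 4 are the chains that NK cells carry in quantity, and summed NK genes were 423 CPM in ZsG- and 149.2 CPM in ZsG+ cells of this class. The part of NK cell RNA in them was not tested.

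The class also changed its makeup between the libraries. The C1q cluster held 1 ZsG- and 1399 ZsG+ cells and the hypoxic cluster 3 and 370, whereas the non-classical cluster held 192 and 32. Within the Vcan cluster, inflammatory monocyte-like cells with 59 ZsG- and 917 ZsG+ cells, Il7r was 8.69 and 28.3 CPM (1.70) and Il12rb1 had 0 UMIs in ZsG- and 98 UMIs in ZsG+ cells. There Il2rb was 81.7 and 8.2 CPM (−3.32), beside NK genes at 568.1 and 146.2 CPM, and Il12rb2 was at 0.19. Within the non-classical cluster Il7r turned to −1.38, on 25 UMIs in ZsG- and 1 in ZsG+ cells.

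Il15, the ligand itself, was near the same level in both libraries over the summed class. It was 33.2 CPM in ZsG- and 33.5 CPM in ZsG+ monocyte/macrophage-like cells, a ratio of 0.02 [−0.32, 0.37], and within the Vcan cluster 73.0 CPM in both (0.00 [−0.45, 0.49]). Il15ra was 13.9 and 12.6 CPM (−0.14) and Il2rg 151.5 and 139 CPM (−0.12). The Il15 ratio was 0.99 when every cell was thinned to 2000 UMIs and 0.85 in the non-classical cluster alone, on 32 UMIs in ZsG- and 6 in ZsG+ cells, so that it depended on how cells were weighed.

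Among 36 pathway genes tested in monocyte/macrophage-like cells, 5 were higher and 4 lower in the ZsG+ library. Of all genes 17.9% were higher and 11.2% lower, so that pathway genes were called no more often than genes at large. Il18bp, the secreted inhibitor of interleukin-18, was 9.86 CPM in ZsG- and 143 CPM in ZsG+ cells (3.86), and Il12b, a subunit of interleukin-12, had 0 and 70 UMIs. Ifng (2.02), Socs2 (1.98) and Il21r (1.75) were also higher. Socs3 (1163 and 340.8 CPM, −1.77), Socs1 (−1.42), Stat5b (−1.25) and Stat4 (−1.21) were lower.

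Which cells could supply interleukin-15 to the NK cells was asked by setting the monocyte/macrophage-like class against the NK cell/ILC-like class. Both libraries were summed, and 3032 of 3287 monocyte/macrophage-like cells were ZsG+ while 2516 of 2629 NK cell/ILC-like cells were ZsG-. The ratios therefore mix class with library. Il15 was the 1 member higher, at 33.5 CPM against 6.75 CPM (2.31), where 20.9% of 12618 genes were higher and 23.1% lower. The 5 members lower were Il2rb (24.2 and 963.1 CPM, −5.31), Il18r1 (3.54 and 120.3 CPM, −5.09), Il12rb2 (−4.08), Il18rap (−3.69) and Il2rg (139.8 and 281.5 CPM, −1.01). The last lay on the limit and was −0.85 with TMM scaling. Il7r (0.70), Il12rb1 (0.40) and Il15ra (0.09) were within 2-fold. In the ZsG- library alone, monocyte/macrophage-like and NK cell/ILC-like cells had 61.8 and 966.7 CPM of Il2rb and 8.07 and 121.4 CPM of Il18r1. Il12rb2 was 10.8 and 85.6 CPM there, Il18rap 21.5 and 116.1 CPM, Il2rg 151.5 and 281.8 CPM and Il15 33.2 and 6.85 CPM. Leaving mitochondrial and ribosomal protein genes out of the totals shifted the median of all genes from −0.16 to −0.42 and the split from 20.9% higher and 23.1% lower to 18.0% and 29.8%.

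Il15 was not spread evenly over myeloid cells. The Vcan cluster had 73.0 CPM [67.1, 79.3], 1.70 log2 units [1.51, 1.88] above the C1q cluster at 22.5 CPM, and Il15 was found in 35.7% of its cells and 12.9% after thinning. The corresponding shares were 2.00% and 0.915% in T cell-like cells, whose median depth of 7086 UMIs was close to the 7085.5 UMIs of the Vcan cluster. The hypoxic cluster had 48.0 CPM, while non-classical (21.1 CPM), DC2-like (15.6 CPM) and DC1-like cells (11.7 CPM) were lower. Mature DC-like cells had 51.9 CPM [39.1, 67.6], from 14 UMIs (102 CPM) in the ZsG- and 41 UMIs (44.5 CPM) in the ZsG+ library, an interval that holds the hypoxic level. The pDC-like cells, at 2.66 CPM, were close to the lymphocytes.

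Il15ra, which presents the ligand, was highest in mature DC-like cells, at 76.5 CPM [60.7, 95.1]. They had 153 CPM from 21 UMIs in the ZsG- and 65.1 CPM from 60 UMIs in the ZsG+ library, and the gene was 2.68 log2 units higher than in DC2-like and 3.92 higher than in DC1-like cells. The Vcan cluster followed at 27.6 CPM, and other classes lay at 17.7 CPM or less. Mature DC-like cells also had 413.6 CPM of Il12b, and the Vcan cluster had 112.5 CPM of Il18 against 41.9 CPM in the C1q cluster.

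The T cell sort showed the same classes a second time among cells with few CD3 transcripts, which passed its gate. Mature DC-like cells there had 108.9 CPM [83.8, 139] of Il15 and 115.7 CPM [89.8, 146.6] of Il15ra, and monocyte/macrophage-like cells 39.7 and 20.5 CPM. The larger pDC-like cluster of that sort had 0 Il15 UMIs in 489 cells, where 3 UMIs would have given 0.752 CPM. The T cells themselves held 11 Il15 UMIs in 1371 cells (0.983 CPM). Il7r in the same pDC-like cluster was 283.1 CPM, with 310.9 CPM in ZsG- and 277 CPM in ZsG+ cells (−0.17), where the CD45+ sort had given −1.20.

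**Figure D5:**
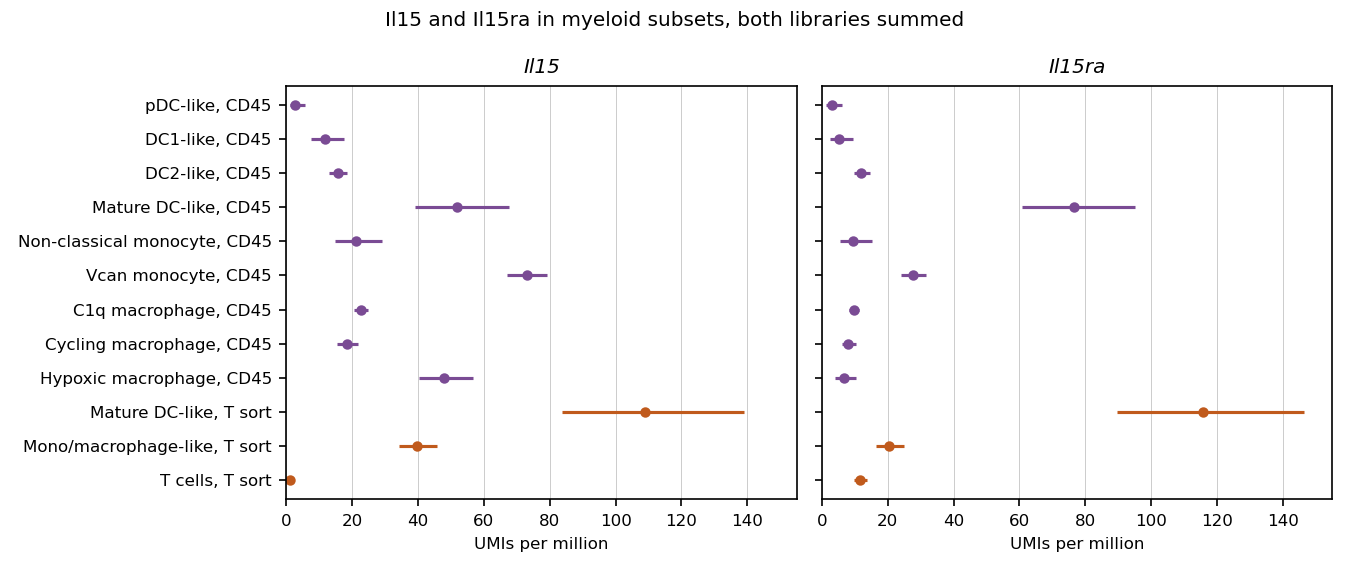
Il15 and Il15ra levels (CPM, axis from 0) in myeloid classes and clusters of both sorts, with 95% Poisson intervals. In the CD45+ sort Il15 is highest in the Vcan cluster (73.0 CPM) and Il15ra in mature DC-like cells (76.5 CPM), and in the T cell sort both are highest in mature DC-like cells.

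In the comparison of monocyte/macrophage-like with NK cell/ILC-like cells 38 pathway genes could be tested, 13 higher and 10 lower. Of all genes 20.9% were higher and 23.1% lower, and the lower count was near that share. Il27 (7.82), Irak3 (6.73), Ebi3 (6.45), Il18bp (5.90), Il18 (5.14) and Il12b led the higher group, the last with 70 UMIs against 0. Stat4, which relays interleukin-12 signals (−4.97), Bcl2 (−4.12), Il27ra (−4.02), the ligand gene Il7 (−2.61, on 6 and 15 UMIs), Ifng (−2.53) and Jak1 (−2.03) were lower. Of these named genes, Il27, Il18, Il12b and the inhibitor Il18bp thus lay on the myeloid side. Stat4, Jak1 and, on few UMIs, the ligand gene Il7 lay on the lymphoid side.

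Whether partner chains were seen in the same cell was asked after thinning each cell to 2000 UMIs. Il2rb and Il2rg were found together in 35.6% of NK cell/ILC-like cells, where the product of their separate shares is 36.0%. Il18r1 and Il18rap were found together in 164 of 2622 cells, 6.26% [5.36, 7.25], against a product of 5.43%. Il7r and Il2rg were together in 16 of 82 ILC1-like cells (19.5%, product 17.3%), in 29.0% of Treg-like cells (24.2%) and in 26.7% of Th1-like cells (25.2%). The rare interleukin-12 receptor pair was found in 15 of 2622 NK cell/ILC-like cells, 0.572% (product 0.493%), and in 0 of 1349 T cells of the T cell sort. Il15 with Il15ra was found in 5 of 86 mature DC-like cells (5.81%, product 3.65%) and 10 of 976 Vcan cluster cells (1.03%, product 0.714%). The product is the share that 2 genes unrelated over all cells of a class would give. Classes such as the NK cell/ILC-like cells pooled subsets with unlike levels of these chains. A share above the product therefore does not show that partner chains go together within single cells.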

How the data were processed

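Single cells of 4 libraries, 1 for each sort and ZsG state, were measured with 10x Genomics 3′ chemistry. The authors deposited UMI counts per gene and cell barcode, aligned to mm10 with Cell Ranger, 1 matrix for each sort, in which the libraries were joined. The matrix headers name version 7.0.0 for the CD45+ sort and 6.1.2 for the T cell sort, the labels 6.1.2 for both, and whether intronic reads were counted or depth was evened between libraries is not stated there. Libraries held 5437 and 5168 barcodes (47537541 and 56510578 UMIs) in the CD45+ sort and 1136 and 2396 barcodes (10030971 and 22100220 UMIs) in the T cell sort, ZsG- first.

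After the study's methods, cells of the CD45+ sort were kept with 1000 to 6000 genes and under 10% mitochondrial UMIs, and those of the T cell sort with at least 50 and under 6000 genes, under 15% mitochondrial UMIs and, for T cells, CD3 genes at 0.055% of UMIs or more. Cells were clustered in Seurat 5.3.0 on 2000 variable genes without the 9 members and the 43 pathway genes, with 20 principal components and resolutions of 0.8 (CD45+), 1.2 (T cells) and 0.5 (NK cell/ILC-like cells and cells under the CD3 limit). Clusters were named from marker lists, with thresholds set after the clusters were seen. A T cell sort cluster led by macrophage genes was left out of the T cells. Scrublet marked 0 and 2 cells of the CD45+ libraries, too few for it to have worked, and 3 and 11 of the T cell libraries, and all cells were kept.

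UMI counts were summed over cells and divided by the total. The ratios and their intervals were tried on Poisson counts drawn from the totals of the T cell sort, with 200 genes changed by more than 2-fold. The intervals held the set value for 96% of genes, and 1.03% of unchanged genes passed 2-fold. Such counts have no spread between cells, mice or libraries, so they check the calculation and not the comparisons. The 9 members and all lists were chosen with earlier results of these data known. Members were always named. Of the pathway list the 6 largest changes past 2-fold in each comparison were named. Alternatives covered scaling (TMM from edgeR 4.0.16, other totals), UMI minimums, thinning, cell weights, doublets, mitochondrial and CD3 limits, clustering and cells with macrophage transcripts.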

Additional observations from a re-analysis of the deposited data

Results flagged for a closer look

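Il7r was past 2-fold between ZsG+ and ZsG- cells in the 3 populations for which calls by ZsG were counted, but not in one direction. Its log2 ratio was −1.23 in T cells of the T cell sort and −2.19 in NK cell/ILC-like cells, and 2.04 in monocyte/macrophage-like cells. The difference between these ratios was not tested, since each rests on 1 library for each state. In each population the makeup differed between the libraries: naive-like cells numbered 85 ZsG- and 38 ZsG+, ILC1-like cells 81 and 1, and hypoxic macrophage-like cells 3 and 370. The T cell ratio was −0.27 when the named classes weighed the same. The NK cell/ILC-like ratio rests on 4 UMIs in ZsG+ cells against 528 in ZsG- cells, of which the ILC1-like cells held 128. In other classes of the CD45+ sort Il7r was at −0.70 in T cell-like, 0.24 in DC2-like, −1.20 in pDC-like and −1.29 in DC1-like cells. Of the T cell-like cells, 1.82% in the ZsG- and 40.7% in the ZsG+ library held at least 5 UMIs of macrophage genes.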

How the results depend on the processing

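No paired analysis was possible because each group has 1 library, and for the same reason no replicate could be left out. Of 91 recomputed counts 77 stayed within range of the reported one and 14 did not; of the single ratios 536 kept their place, 72 moved and 2 reversed. For T cells the count of members called was 1, but 2 without a UMI minimum (Il7r and Il15), 0 after thinning to 2000 UMIs (Il7r −0.75) and 0 when the named classes weighed the same (Il7r −0.27). For NK cell/ILC-like cells it was 1, and 2 both after thinning and, chosen after seeing the data, without the subset with macrophage transcripts (Il7r and Il15ra in each). For monocyte/macrophage-like cells it was 6, but 2 in the non-classical cluster alone, where Il7r reversed to −1.38, and Il12rb2 reversed to 0.19 in the Vcan cluster alone, both settings also chosen after seeing the data. For ILC1-like against conventional NK-like cells it was 2, but 1 (Il7r) with at least 100 UMIs, after thinning and with a mitochondrial limit of 5%, where Il12rb1 has too few UMIs. The counts ranged from 4 to 5 for NK cell/ILC-like over T cell-like cells and from 5 to 6 for monocyte/macrophage-like over NK cell/ILC-like cells. All these counts stand without the share of all genes called under the changed setting, which can itself move. They therefore show which calls held, and not whether members were called more often than other genes. The class with the highest level stayed for 8 of 9 members under thinning and with each cell's own CPM (Il7r moved from pDC-like to T cell-like cells), with the 5% limit (Il7r to mature DC-like cells) and at lower resolution (Il15 to monocyte/macrophage-like cells), all chosen after seeing the data. Il18r1 and Il18rap were found together in 6.18% of ZsG- NK cell/ILC-like cells with thinning and in 22.4% without. Where not stated, the cause was not tested. Depth limits Il12rb1, Il15 and Il15ra in lymphocytes most, with single-digit UMI numbers in some groups.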

Other observations

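For each member the 3 genes whose log2(CPM + 1) was most alike across 20 classes and subsets of the CD45+ sort were found by Pearson's r, as a description of subsets that share libraries and depth. Il2rb was most like Sytl2 (0.992), Sytl3 (0.991) and Ctsw (0.989), the last a cathepsin of cytotoxic cells. Il18r1 was most like Gimap8 (0.989), Gimap4 (0.988) and Gimap9 (0.987), 3 GTPase genes of lymphocytes, and Il18rap most like Fasl (0.984), 4833403J16Rik (0.97) and Dapk2 (0.967). Il12rb2 was most like Satb1 (0.968), Vgll4 (0.963) and the NK receptor gene Klre1 (0.96). Il2rg was most like Shisa5 (0.893), Icam2 (0.886) and Jak3 (0.882), the kinase that binds the gamma chain.

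Among the remaining members the first values ran from 0.732 to 0.917. Il15 was most like Tdrd7 (0.917), Gsdmd (0.897), which encodes the pore protein gasdermin D, and Rapgef2 (0.885). Il15ra was most like Traf1 (0.854), Glipr2 (0.838) and Nfkb2 (0.834), of which the first and last belong to NF-kB signalling. Il12rb1 was most like Serpina3f (0.826), Myo1e (0.769) and Serpina3g (0.72). Il7r, at most 0.732 with Zfp984, 0.721 with Map7 and 0.714 with Gpr183, had the lowest first value of the 9 members.

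Among cells of the T cell sort under the CD3 limit, 2 pDC-like clusters had 283.1 and 183.1 CPM of Il7r and mature DC-like cells 239.8 CPM, while DC1-like cells had 22.3 CPM. Monocyte/macrophage-like cells there had 89.2 CPM. NK cell/ILC-like cells of that group had 65.6 CPM of Il7r, a log2 ratio of −1.91 to the T cells, and exceeded them by 1.61 in Il2rb and 2.01 in Il12rb2. Mature DC-like cells of that group also had 1369 CPM of Il12b, 408.2 CPM of Stat4 and 576.6 CPM of Socs2.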
